A study of Rattus norvegicus with 6 samples.

Results

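The genes of 6 chemokines that attract lymphocytes, Cxcl9, Cxcl10, Cxcl11, Cxcl13, Cxcl16 and Ccl5, were followed in primary rat microglia stimulated with lipopolysaccharide (LPS) in the absence or presence of siponimod. They were taken by gene name from the deposited count tables, are 6 of 23139 genes listed there, and all 6 passed the filter on low counts. Microglia, the resident macrophages of the brain, were shaken off mixed cultures of cortices from Wistar rats at postnatal day 1 and selected with beads against CD11b/c, a selection that other myeloid cells can also pass. The bulk mRNA of 6 cultures was sequenced, 3 biological replicates per condition. All 6 cultures received 100 ng/ml LPS, the bacterial endotoxin, which acts on microglia through Tlr4. The LPS group additionally received DMSO, the solvent of siponimod, and the LPS/siponimod group received 50 µM siponimod dissolved in DMSO. Siponimod is a modulator of the sphingosine-1-phosphate receptors S1pr1 and S1pr5 that is used in multiple sclerosis. Unstimulated cells and cells with siponimod alone are not analysed here, and no value shows what LPS itself did. The length of stimulation of the sequenced cultures is not clearly stated in the sources used here. The sex of the animals and the number of animals per culture are not given there.

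Chemokines are small secreted proteins that steer leukocytes along gradients through G protein-coupled receptors. Cxcl9, Cxcl10 and Cxcl11 are classical interferon-induced genes and share the receptor Cxcr3 of activated T cells and NK cells, while Cxcl13 attracts B cells and follicular helper T cells through Cxcr5. Ccl5 attracts T cells and myeloid cells, and Cxcl16 is made as a membrane-bound protein that binds Cxcr6 and is released by the protease Adam10. In macrophages and microglia, LPS is known to act on such genes directly through NF-kB and indirectly through interferon beta, whose signal reaches the interferon-stimulated response element (ISRE) and the gamma-activated site (GAS) of target promoters.

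Total counts were 39484979, 38301365 and 38080379 in the LPS libraries 1 to 3 and 46643859, 43336006 and 38857441 in the LPS/siponimod libraries 1 to 3. Levels are given as CPM, the counts of a gene relative to the library size, scaled with the TMM method and shown as mean ± SD of n = 3 libraries. Log2 fold changes (FC) set LPS/siponimod against LPS and come from edgeR's quasi-likelihood test over all 11977 genes that passed the filter. A gene was called differentially expressed (DEG) when its Benjamini-Hochberg adjusted p did not exceed 0.05 and its fold change reached 1.5. Of all genes tested, 3036 (25.3%) were DEGs, 1403 (11.7%) lower and 1633 (13.6%) higher with LPS/siponimod. Of the 6 libraries, LPS replicate 3 stood somewhat apart. Its log2 CPM values correlated over genes with those of LPS replicates 1 and 2 at r = 0.935 and 0.945, against 0.983 between these 2. It held 515 counts of the oligodendrocyte lineage gene Olig1, against 1 and 5 in the other LPS libraries. Values without it are therefore given beside many of the results. Over all genes tested, same-numbered LPS and LPS/siponimod libraries deviated together. Not every one of the 6 chemokine genes followed this. Cxcl10 deviated from its group mean by 0.27, -0.08 and -0.20 on the log2 scale in LPS replicates 1 to 3. In LPS/siponimod replicates 1 to 3 it deviated by -0.83, 1.42 and -0.58. Same-numbered libraries are called pairs below, which does not mean that each chemokine gene was matched within them. The fold changes, their p-values and the exact permutation tests take no account of these pairs, except where the replicate block is named, which adds the number as a term to the fit. Differences by pair are given as values.

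Of the 6 chemokine genes, 5 were DEGs, all lower with LPS/siponimod, against 11.7% of all genes tested. The 6 genes were chosen with earlier results of these data known, so that this count is not an independent result. Cxcl11, Cxcl13 and Cxcl10 showed the greatest changes, by 18.2-, 10.0- and 8.72-fold, and Cxcl9 and Ccl5 fell by 2.81- and 2.79-fold. Cxcl16 was not a DEG. For the 5 DEGs, the lowest LPS library lay above the highest LPS/siponimod library, as in 24.0% of all genes tested. Each of the 3 pairs was then necessarily lower, as it was in 35.4% of all genes. In bulk RNA, fewer cells that make a chemokine and less mRNA per cell cannot be told apart. An exact permutation test for 1 gene has its smallest two-sided value at p = 0.10 in a design of 3 against 3 libraries. Each of the 5 genes reached it, as any gene without overlap does. The adjusted p-values additionally use the spread that edgeR estimates from all genes.

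**Figure D1:**
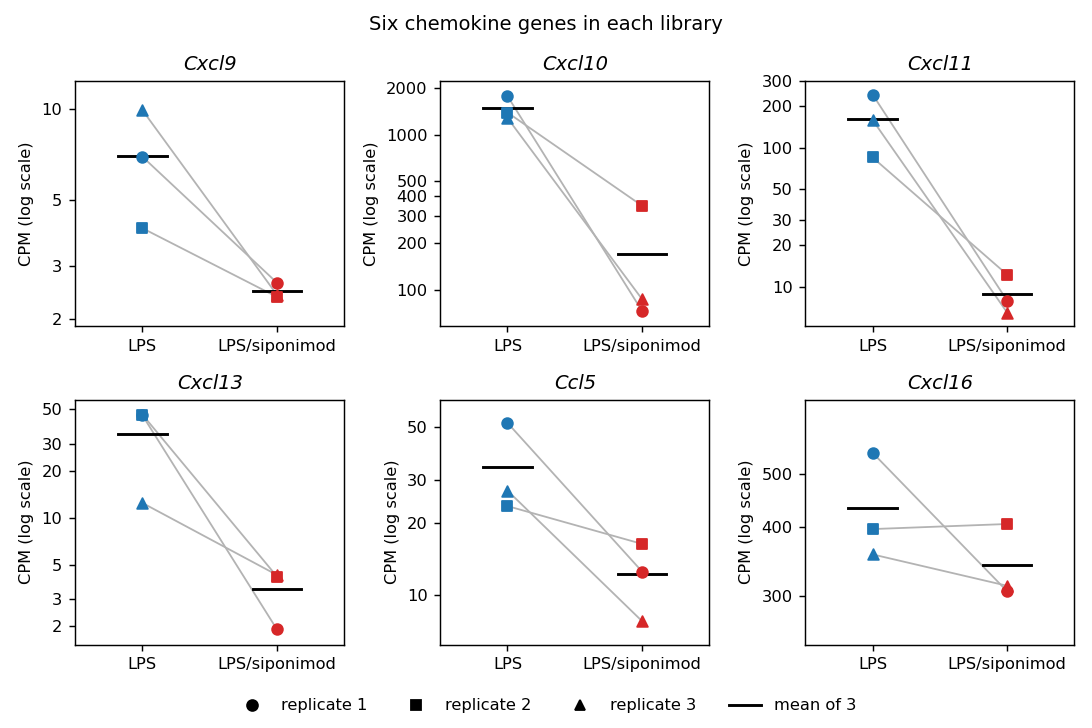
Level of each chemokine gene (CPM, log scale) in the 3 LPS and the 3 LPS/siponimod libraries, with symbols for replicates, lines joining same-numbered libraries and bars for the mean of 3. In 5 genes the conditions do not overlap, whereas the Cxcl16 values of the conditions lie among each other.

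The promoters of the 3 Cxcr3 ligands and of Cxcl16 are shown here because the first 3 genes share a receptor and a stretch of chromosome and were lower DEGs, while Cxcl16 was not a DEG. They run from 250 bases before to 50 bases after the annotated start of transcription, 5′ to 3′ on the strand of the gene, and come from RefSeq (assembly GRCr8, a different assembly from the one used for mapping the reads). Capitals mark matches to 1 of 4 motifs searched on both strands, namely the ISRE core (GAAA, any 2 bases and GAAA again), the GAS TTCNNNGAA, the TATA box TATAAA and the NF-kB motif, which is given by name. The windows lie at chr14:15973478-15973777 (plus strand) for Cxcl11, chr14:15988816-15989115 (plus strand) for Cxcl10, chr14:16006916-16007215 (plus strand) for Cxcl9 and chr10:55669901-55670200 (minus strand) for Cxcl16.
Cxcl11: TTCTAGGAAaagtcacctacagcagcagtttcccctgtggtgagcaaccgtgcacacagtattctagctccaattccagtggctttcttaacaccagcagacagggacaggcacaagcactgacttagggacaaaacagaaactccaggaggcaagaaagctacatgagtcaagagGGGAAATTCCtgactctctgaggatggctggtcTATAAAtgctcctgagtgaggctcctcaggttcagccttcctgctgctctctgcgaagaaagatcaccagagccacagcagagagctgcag
Cxcl10: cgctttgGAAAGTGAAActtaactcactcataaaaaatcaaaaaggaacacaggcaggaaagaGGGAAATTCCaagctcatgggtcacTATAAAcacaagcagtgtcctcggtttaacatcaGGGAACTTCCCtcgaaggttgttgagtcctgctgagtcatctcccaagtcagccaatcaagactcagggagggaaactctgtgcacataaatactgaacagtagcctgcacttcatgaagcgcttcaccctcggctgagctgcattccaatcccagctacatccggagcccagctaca
Cxcl9: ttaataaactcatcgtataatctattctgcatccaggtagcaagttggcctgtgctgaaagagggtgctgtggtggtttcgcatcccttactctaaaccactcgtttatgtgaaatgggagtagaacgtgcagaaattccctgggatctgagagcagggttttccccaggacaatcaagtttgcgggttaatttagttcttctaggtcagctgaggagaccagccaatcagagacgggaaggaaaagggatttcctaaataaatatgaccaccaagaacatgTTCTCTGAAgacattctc
Cxcl16: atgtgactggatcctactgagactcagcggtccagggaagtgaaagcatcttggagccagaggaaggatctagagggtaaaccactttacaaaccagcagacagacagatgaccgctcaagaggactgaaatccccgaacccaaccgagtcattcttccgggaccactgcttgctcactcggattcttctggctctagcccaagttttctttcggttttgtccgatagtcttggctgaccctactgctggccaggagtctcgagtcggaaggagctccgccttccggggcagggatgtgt

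Of the 5 members with an entry in the promoter table, Cxcl10 alone held the ISRE core, GAAAGTGAAA from base -243 to base -234 counted from the start of transcription. These letters occur in 3.92% of all 33469 promoters of the table. NF-kB matches were found in Cxcl10 (GGGAAATTCC from -187 to -178, and GGGAACTTCC from -128 to -119 with an overlapping match on the other strand from -127 to -118) and in Cxcl11 (GGGAAATTCC from -74 to -65), against 7.51% of all promoters. The GAS letters were present at the far end of the Cxcl11 window (TTCTAGGAA from -250 to -242) and, in Cxcl9, behind the start of transcription (TTCTCTGAA from 33 to 41), against 8.87% of all promoters. The TATA box letters were present from -162 to -157 in Cxcl10. In Cxcl11 (from -41 to -36) and Cxcl13 (from -33 to -28) they lay closer to the start of transcription. They occur in 14.2% of all promoters. No other matches overlapped. Among the 10085 promoters of genes tested here, the ISRE core occurs in 3.11%, NF-kB in 10.2%, GAS in 6.74% and the TATA box in 6.83%. Cxcl16 held none of the 4 motifs in this window, and Ccl5 has no entry. A match describes letters in a window only, as does its absence, and binding was not measured.

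**Figure D2:**
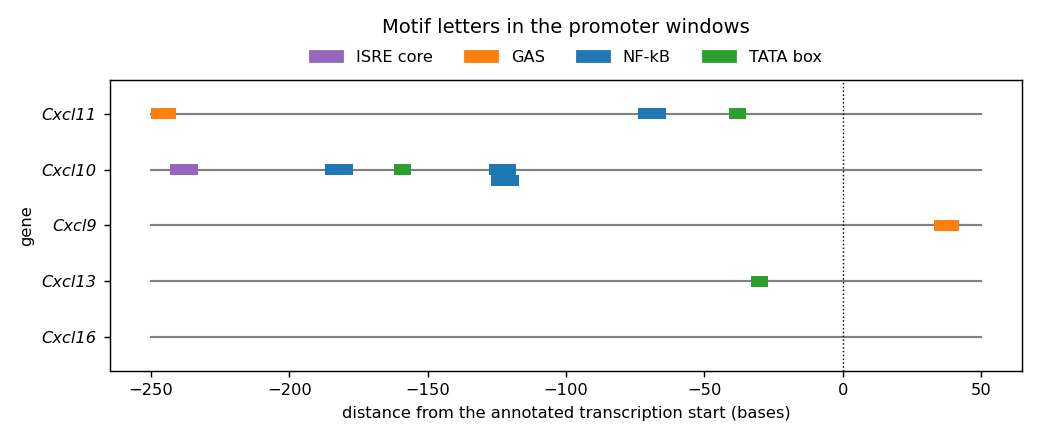
Matches to 4 motifs in the promoter windows of 5 chemokine genes, by distance in bases from the annotated start of transcription (x axis), with boxes below a line for matches on the other strand. Cxcl10 and Cxcl11 carry NF-kB and TATA box letters, Cxcl10 alone the ISRE core, and Cxcl16 none of the 4.

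Cxcl11, a ligand of Cxcr3, had 8937, 3276 and 5880 counts in LPS replicates 1, 2 and 3 and 368, 544 and 267 in LPS/siponimod replicates 1, 2 and 3. The lowest LPS library thus still held several times the count of the highest LPS/siponimod library. Its level was 161 ± 78.1 CPM with LPS and 8.87 ± 2.96 CPM with LPS/siponimod (log2 FC -4.19, standard error 0.47, 95% interval from -5.32 to -3.05, quasi-likelihood adjusted p = 0.00636). Pairs 1 and 3 were lower by similar amounts, with log2 differences of -4.92 and -4.59, and pair 2 by less (-2.80). Cxcl11 was a DEG whichever of the 6 libraries was left out, with log2 FCs from -4.49 to -3.76 and quasi-likelihood adjusted p-values of at most 0.0368. Without LPS replicate 3 its log2 FC was -4.20.

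Cxcl10, another ligand of Cxcr3 and a widely used readout of interferon responses, had 65600, 53475 and 47575 counts in the LPS cultures, compared with 3405, 15551 and 3581 under LPS/siponimod. The LPS libraries were close together, while LPS/siponimod replicate 2 stood well above the other LPS/siponimod libraries. On the CPM scale, the highest library exceeded the lowest by 1.38-fold with LPS and by 4.75-fold with LPS/siponimod. The mean level was 1479 ± 258 CPM against 170 ± 155 CPM (log2 FC -3.12, standard error 0.67, 95% interval from -4.73 to -1.51, quasi-likelihood adjusted p = 0.0209). By pair, the log2 difference was -4.59, -1.99 and -3.87. Without LPS/siponimod replicate 2 the log2 FC was -4.21 (quasi-likelihood adjusted p = 0.00526), and without LPS replicate 3 it was -3.22 (0.0281). The call was lost without LPS replicate 1 (quasi-likelihood adjusted p = 0.0585), LPS replicate 2 (0.0709), LPS/siponimod replicate 1 (0.0749) or LPS/siponimod replicate 3 (0.0688), with log2 FCs of -2.76 or lower in these fits.

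Cxcl9, the third ligand of Cxcr3, was covered by few reads, namely 258, 155 and 370 counts in the LPS cultures, compared with 123, 106 and 99 under LPS/siponimod. The LPS/siponimod libraries were nearly equal and all lay below the LPS libraries, which differed by up to 2.47-fold on the CPM scale. Cxcl9 fell from 6.98 ± 2.96 to 2.48 ± 0.148 CPM (log2 FC -1.49, standard error 0.35, 95% interval from -2.34 to -0.64, quasi-likelihood adjusted p = 0.027). Its pairs differed by -1.38, -0.75 and -2.02 on the log2 scale, pair 3 being the most lowered, whereas in Cxcl10 it was pair 1. Without LPS replicate 3, the highest library, the log2 FC was -1.14 (quasi-likelihood adjusted p = 0.0361). The call was lost without LPS replicate 1 (0.0704) or without LPS/siponimod replicate 1 (0.0984), 2 (0.0659) or 3 (0.0891), all quasi-likelihood adjusted p-values, with log2 FCs that stayed between -1.55 and -1.47.

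Cxcl13, which guides B cells through Cxcr5, had 1688, 1773 and 463 counts in the LPS cultures, compared with 89, 187 and 176 under LPS/siponimod. LPS replicate 3 was the low library of its group but remained above all LPS/siponimod libraries. The level changed from 34.7 ± 19.2 to 3.46 ± 1.34 CPM (log2 FC -3.32, standard error 0.60, 95% interval from -4.77 to -1.87, quasi-likelihood adjusted p = 0.014), and the log2 differences by pair were -4.54, -3.44 and -1.53. Here pair 3 showed the least change, unlike in the other members. Without LPS replicate 3 the log2 FC was -3.72 (quasi-likelihood adjusted p = 0.0105). Cxcl13 was no longer a DEG without LPS replicate 2 (log2 FC -3.06, quasi-likelihood adjusted p = 0.0602), LPS/siponimod replicate 1 (-3.04, 0.0621) or LPS/siponimod replicate 3 (-3.50, 0.0507).

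Ccl5, a CC chemokine for T cells and monocytes, had 1921, 902 and 1009 counts in the LPS cultures, compared with 582, 728 and 320 under LPS/siponimod. The gap between the conditions was narrow in pair 2, where the log2 difference was -0.52, and wider in pairs 1 and 3 (-2.04 and -1.79). The mean fell from 34.1 ± 15.4 to 12.2 ± 4.26 CPM (log2 FC -1.48, standard error 0.40, 95% interval from -2.45 to -0.52, quasi-likelihood adjusted p = 0.0377). Ccl5 passed without LPS replicate 3 (log2 FC -1.62, quasi-likelihood adjusted p = 0.0389). It was not a DEG without LPS replicate 1 (-1.03, 0.0859), LPS replicate 2 (-1.69, 0.0732), LPS/siponimod replicate 1 (-1.50, 0.134) or LPS/siponimod replicate 3 (-1.24, 0.105) by the same test.

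Cxcl16, the membrane-bound ligand of Cxcr6, had 20264, 15297 and 13276 counts in the LPS cultures, compared with 14213, 18104 and 12846 under LPS/siponimod. LPS/siponimod replicate 2 lay above LPS replicates 2 and 3 on the CPM scale, so that the conditions overlapped. The mean was 434 ± 100 CPM with LPS and 341 ± 55.6 CPM with LPS/siponimod (log2 FC -0.34, standard error 0.22, 95% interval from -0.87 to 0.18, quasi-likelihood adjusted p = 0.267; exact two-sided permutation p = 0.3). The interval includes both no change and a fall by more than 1.5-fold. By pair, the log2 difference was -0.84, 0.03 and -0.19. In the 6 fits without 1 library the log2 FC lay between -0.49 and -0.13 and Cxcl16 was not a DEG in any of them.

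**Figure D3:**
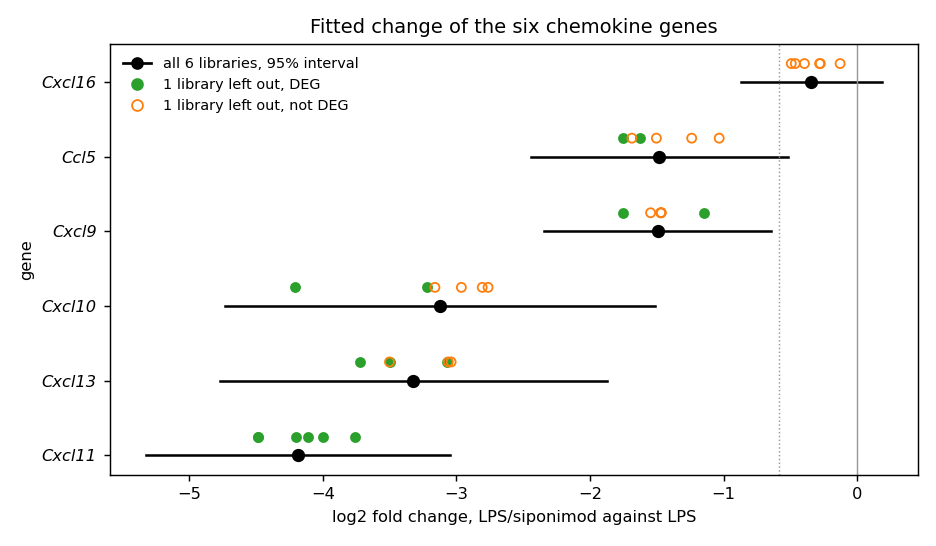
Fitted log2 FC of each chemokine gene (x axis, LPS/siponimod against LPS) with its 95% interval in black, and the values of the 6 fits that left out 1 library, filled where the gene was a DEG. The solid line marks no change and the dotted line a fall by 1.5-fold. Cxcl11 is filled in all 6 fits, Cxcl16 in none.

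Whether Cxcl16 differed from the other 5 was tested directly on the log2 ratio of Cxcl16 to each of them in every library. The ratio was higher with LPS/siponimod in all 5 cases, by 3.77 for Cxcl11, 3.15 for Cxcl10, 2.84 for Cxcl13, 1.12 for Ccl5 and 1.05 for Cxcl9 on the log2 scale. Without LPS replicate 3 these values were 3.60, 3.12, 3.33, 1.11 and 0.62 in the same order. In none of the 5 did the conditions overlap. The exact two-sided permutation test gave p = 0.10 for each, the smallest value it can give here, and 0.10 after Benjamini-Hochberg adjustment over the 5 comparisons, so that none passed 0.05. Among the 5 DEGs, the 95% intervals of Cxcl10 and Cxcl13 overlapped those of all other members of the 5, and the interval of Cxcl11 lay below those of Cxcl9 and Ccl5. Differences between these members were not tested.

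Summed over the 6 genes, 2662, 1943 and 1844 CPM were found in LPS replicates 1 to 3 and 404, 789 and 421 CPM in LPS/siponimod replicates 1 to 3. The sum was higher in every LPS library than in any LPS/siponimod library, with means of 2150 ± 446 and 538 ± 217 CPM (difference of the mean log2 sum -2.05, exact two-sided permutation p = 0.10, adjusted p = 0.175 over the sum and the 6 shares). Without LPS replicate 3 the difference of the mean log2 sum was -2.15. Most of the reads belonged to Cxcl10 in the LPS libraries and to Cxcl16 in the LPS/siponimod libraries. Cxcl10 made up 69.1% ± 2.48 of the summed reads with LPS and 27.7% ± 14.3 with LPS/siponimod, and in LPS/siponimod replicate 2 its share was 44.2%. The share of Cxcl16 was 20.1% ± 0.651 with LPS and 67.1% ± 13.6 with LPS/siponimod, and that of Cxcl11 7.34% ± 2.58 and 1.68% ± 0.240. For each of these 3 shares the exact permutation p was 0.10 and the adjusted p 0.175. The shares of a library add up to the whole, so that a fall of Cxcl10 by itself raises the share of Cxcl16. The 3 shares are therefore not separate results. The mean level of Cxcl16 did not rise (434 CPM with LPS and 341 CPM with LPS/siponimod). All shares are of reads, which also depend on transcript length, and not of molecules.

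**Figure D4:**
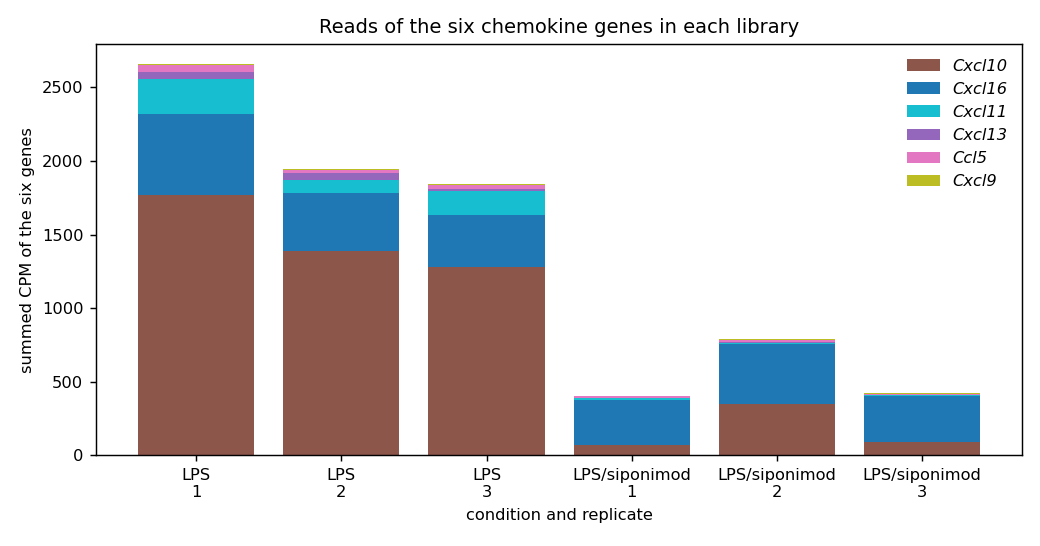
Summed CPM of the 6 chemokine genes (y axis) in each library, stacked by gene. Cxcl10 fills most of the LPS bars, and Cxcl16 most of the 3 LPS/siponimod bars, of which replicate 2 is the highest.

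Within the LPS/siponimod group, replicate 2 was the highest library for 4 of the 6 chemokine genes, as for 38.1% of all genes tested. Pair 2 was the least lowered of the 3 pairs for 5 of the 6, as for 31.0% of all genes. The same library was also the highest of its group for 20 of 25 interferon-stimulated genes and for 9 of 12 microglial markers. Its part in the results of Cxcl10 and Ccl5 is given by the values without it, and Ccl5 had a log2 FC of -1.75 then.

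Likeness of pattern was measured as the root mean square difference of log2 CPM over the 6 libraries, after centring each gene on its own mean. Among the members, Cxcl9 and Ccl5 were closest (0.536), followed by Cxcl16 and Ccl5 (0.638) and by Cxcl10 and Cxcl11 (0.676). Of all genes tested, those most like Cxcl10 were Gpr157 (0.367), Tnfrsf8 (0.368), which encodes CD30, and Gatm (0.375). For Cxcl11 they were Ecscr (0.479), Rnase1 (0.660) and Siglec8 (0.662), all farther from it than the nearest genes of the other members. Cxcl13 was nearest to Tnfsf14 (0.233), which encodes the cytokine LIGHT, to the ubiquitin ligase gene Marchf1 (0.240) and to Rnpep (0.305). The closest genes were Tmem171 (0.231), Glrx (0.238) and Ggt7 (0.238) for Cxcl9, AABR07062154.1 (0.163), Ifitm3 (0.207) and Nr1h3 (0.213) for Ccl5, and Stoml1 (0.0676), Akap8l (0.0784) and Rex1bd (0.0807) for Cxcl16. The values describe likeness over 6 libraries that share their condition.

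In the order of genes in GRCr8, Cxcl11, Cxcl10 and Cxcl9 lie next to each other on chromosome 14, between Art3 and Sdad1, and Cxcl13 lies elsewhere on the same chromosome. Cxcl16 and Ccl5 are on chromosome 10, the latter beside Ccl9, Ccl3 and Ccl4. Of 24 neighbouring genes looked up around the members, 18 were tested, 1 was a lower DEG and none a higher DEG by the quasi-likelihood test (3 lower and 1 higher at an unadjusted p under 0.05), where 11.7% of all genes tested were lower and 13.6% higher DEGs. With the replicate block, 3 were lower and 1 higher, Arrb2 (-1.48, 0.029), Med11 (-0.61, 0.038) and Zmynd15 (1.49, 0.00674), all 3 close to Cxcl16, being added, and DESeq2 also gave 3 and 1. Without LPS replicate 3, 2 were lower and 3 higher, without LPS/siponimod replicate 2, 3 were lower, and in the other fits without 1 library none was a DEG. In the fit without the block, the lower DEG was Naaa, which encodes a lysosomal amidase for lipid mediators and lies close to Cxcl9. It was named after its values were seen. Naaa had 84983, 126681 and 87269 counts in the LPS cultures, compared with 13337, 34303 and 5353 under LPS/siponimod, without overlap as in 24.0% of all genes (log2 FC -2.74, SE 0.66, quasi-likelihood adjusted p = 0.0279). It was no DEG in 4 of the 6 fits without 1 library, where its adjusted p reached 0.12 (without LPS/siponimod replicate 1).

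The receptors and decoy receptors of the chemokines that are reported here had at most 92 counts in any library. Cxcr5, the receptor of Cxcl13, had 92, 56 and 41 counts against 34, 22 and 29, and its log2 FC of -1.38 just missed the threshold (quasi-likelihood adjusted p = 0.0511). Fitted with the replicate number as a block, Cxcr5 passed (log2 FC -1.33, adjusted p = 0.0406 in the quasi-likelihood test), as it did without LPS replicate 3 (-1.60, 0.0332) and in DESeq2 (adjusted p = 0.0167). In the other 5 fits without 1 library it was not a DEG, with a quasi-likelihood adjusted p of up to 0.187 and a log2 FC of -0.97 at the weakest. Cxcr6, the receptor of Cxcl16, had 57, 33 and 19 counts against 70, 63 and 91, with overlap (log2 FC 0.82, quasi-likelihood adjusted p = 0.226). Cxcr3, the shared receptor of Cxcl9, Cxcl10 and Cxcl11, was found with 1, 3 and 0 counts with LPS and none with LPS/siponimod, which is at or under the floor of 3 counts. Ccr3 had between 1 and 4 counts in each library and the scavenging receptor Ackr4 between 3 and 6. Ackr1 and Ackr3 did not exceed 2 counts in any library, Ackr2 was at 0 in all 6, and Ccr1 is not analysed here.

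Upstream of the chemokines, 14 interferon signalling components were tested, of which 3 were lower and 1 higher DEGs. Counted in either direction, these 4 lay near the 25.3% of all tested genes that were DEGs, as did the 6 of 20 and 4 of 13 in the lists of Tlr4 and NF-kB signalling components and of feedback inhibitors. The interferon signalling components had a median log2 FC of -0.27 beside -0.02 for all genes tested. The lower DEGs were the kinase gene Jak2 (4513, 4095 and 4089 against 3267, 3693 and 2730 counts, log2 FC -0.62, quasi-likelihood adjusted p = 0.0205) and the interferon regulatory factors Irf7 (-1.11, 0.0304) and Irf5 (-1.01, 0.0313). Ifngr1, a chain of the interferon gamma receptor, was the higher DEG (log2 FC 1.02, quasi-likelihood adjusted p = 0.0498). With the replicate block 5 were lower and 1 higher, Stat2 (-0.61, 0.0368) and Irf8 (-1.63, 0.0133) being added. Without LPS replicate 1 or 2 or LPS/siponimod replicate 1 or 3 no lower DEG was left in this list, and without LPS replicate 3 there were 4 lower and 0 higher. Ifngr1 passed in 1 of the 6 fits without 1 library. Ifnb1, the gene of interferon beta, was below the filter with 16, 7 and 40 counts against 0, 1 and 1, and Ifng was at 0 in all libraries.

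A list of interferon-stimulated genes, to which Cxcl9, Cxcl10 and Cxcl11 were not added, gave 17 lower DEGs among 25 tested and no higher one. At an unadjusted p under 0.05 there were 20 and 0, and 11.7% of all genes tested were lower DEGs. All 25 had a negative log2 FC (median -1.23). This list, too, was chosen with earlier results of these data known. Its members with the smallest p-values were Isg15 (19817, 19867 and 16386 counts in the LPS cultures, compared with 6588, 8935 and 6349 under LPS/siponimod, log2 FC -1.59, quasi-likelihood adjusted p = 0.00655), Ifi44l (-1.32, 0.00655) and Ifi44 (-1.23, 0.00733). For all 3 the LPS libraries lay close together and above all LPS/siponimod libraries, the latter as in 24.0% of all genes tested. The range of the list was from -2.31 to -0.34, so that the log2 FCs of Cxcl10 and Cxcl11 lay below those of all 25 and that of Cxcl9 within their range. The number of lower DEGs in the list was 9 without LPS replicate 1, 4 without LPS replicate 2, 18 without LPS replicate 3, and 5, 15 and 7 without LPS/siponimod replicates 1, 2 and 3.

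In the list of Tlr4 and NF-kB signalling components, 4 of 20 tested genes were lower and 2 higher DEGs (median log2 FC -0.24). Rela, the gene of the p65 subunit of NF-kB, rose from 2688, 2440 and 2562 to 5974, 4993 and 4810 counts (log2 FC 0.80, quasi-likelihood adjusted p = 0.00886), and the related subunit gene Rel rose as well (1.06, 0.038). The kinase genes Ikbke (-1.44, 0.0273) and Tbk1 (-0.64, 0.0295), whose products act on interferon regulatory factors, and the NF-kB gene Nfkb2 (-0.66, 0.0301) were lower by the same test. Without LPS replicate 1 or 2 or LPS/siponimod replicate 1 or 3, none of the list was a lower DEG. Rela was a higher DEG in 5 of 6 such fits, all except that without LPS replicate 2 (quasi-likelihood adjusted p = 0.0508), and Rel in 1 of 6, that without LPS replicate 3.

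Of 13 feedback inhibitors of these pathways, 3 were lower and 1 higher (median log2 FC -0.51). Usp18, which restrains the interferon receptor, had 26787, 29180 and 33598 counts in the LPS cultures, compared with 14927, 19113 and 12090 under LPS/siponimod (log2 FC -1.19, quasi-likelihood adjusted p = 0.0121). Tnip1, a partner of the NF-kB inhibitor A20 (-0.87, 0.0275), and the phosphatase gene Ptpn6 (-1.44, 0.0449) were lower too, while the phosphatase gene Ptpn2 was higher (0.59, 0.0291) by the same test. With the replicate block there were 4 lower and 2 higher DEGs, with Socs1 (-0.85, 0.0255) and Tnfaip3 (0.68, 0.0236) added, and without 1 library between 0 and 3 lower ones, 0 without LPS replicate 2 or LPS/siponimod replicate 1 or 3 and 1 without LPS replicate 1. Among 7 genes for proteins that bind AU-rich mRNA and control its decay, none was a DEG by the quasi-likelihood test (median log2 FC -0.01, with 1 lower and 2 higher at an unadjusted p under 0.05). By DESeq2, limma-voom and the likelihood ratio test 1 gene was a higher DEG, as with the replicate block, where it was Zfp36l2 (1.42, 0.0209). Zfp36l2 was also a higher DEG without LPS replicate 3 (log2 FC 0.95, quasi-likelihood adjusted p = 0.016). The most abundant of them, Zc3h12a, had 4973, 5822 and 12377 counts against 5613, 5833 and 6363 and overlapped (log2 FC -0.60, quasi-likelihood adjusted p = 0.247).

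Proteases that cut chemokines were represented by 8 tested genes, 2 of them higher and none lower DEGs (median log2 FC 0.47, with 4 and 1 at an unadjusted p under 0.05). Of all genes tested, 13.6% were higher DEGs and 25.3% were DEGs in either direction, and 2 of 8 lay near the latter share. The aminopeptidase gene Anpep had 4499, 2543 and 680 counts in the LPS cultures, compared with 31657, 12773 and 9906 under LPS/siponimod (log2 FC 2.56, quasi-likelihood adjusted p = 0.0482), and the cathepsin gene Ctsk rose from 46, 14 and 18 to 304, 77 and 189 counts (2.62, 0.0349). Neither gene overlapped between the conditions, as for 25.3% of all genes tested in the higher direction. No protease was a DEG without LPS replicate 2 or LPS/siponimod replicate 1 or 3, and 1 was without LPS replicate 1 or 3. Adam10, the protease that releases Cxcl16, was not a DEG (log2 FC 0.34, 95% interval from 0.02 to 0.67, quasi-likelihood adjusted p = 0.0998), nor was Adam17 (-0.58, from -1.07 to -0.10, 0.0728). Dpp4, whose product shortens Cxcl9, Cxcl10 and Cxcl11, was at 0 in all libraries.

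Other chemokines were counted for comparison. Of 7 other CXC chemokines tested, 1 was a lower DEG, beside 11.7% of all genes tested, and the median log2 FC was 1.19. The lower DEG was Cxcl17, a chemokine for myeloid cells, with 2142, 1562 and 1179 counts against 404, 499 and 297 (log2 FC -2.26, quasi-likelihood adjusted p = 0.00711), and it was a DEG in all 6 fits without 1 library. Cxcl3, which attracts neutrophils, was the most abundant with 11488, 1857 and 33918 counts against 187161, 73881 and 188558, and its log2 FC of 3.02 missed the threshold (quasi-likelihood adjusted p = 0.0707). With the replicate block, 2 genes were higher DEGs, Cxcl3 (3.71, 0.0125) and Cxcl6 (2.62, 0.0236), and without LPS replicate 3 there were 4, Cxcl1, Cxcl2, Cxcl3 and Cxcl6. Of 8 other chemokines of the CC, CX3C and C families, 1 was lower (median log2 FC -0.63), namely Ccl12, a ligand for monocytes, with 53204, 36338 and 128912 counts against 6739, 20791 and 14924 (-2.58, 0.0309). It was not a DEG in 4 of the 6 fits without 1 library, with adjusted p-values up to 0.0998 (without LPS/siponimod replicate 1). Ccl3, for monocytes and T cells, held 30918, 28782 and 279927 counts with LPS, the last in replicate 3, and 74261, 77649 and 101389 with LPS/siponimod. With all libraries the log2 FC of Ccl3 was -0.65 (adjusted p = 0.618 in the quasi-likelihood test), and it turned to 0.24 with the replicate block and to 1.30 without LPS replicate 3. With the replicate block 1 gene of this list was a higher DEG, Ccl20 (3.14, 0.00868), and without LPS replicate 3 there were 2, Ccl20 and Ccl3 (adjusted p = 0.0233 in the quasi-likelihood test). Of 13 lymphoid tissue cytokines and adhesion molecules, Tnfsf14 was the lower DEG (57, 75 and 13 against 0, 4 and 4 counts, log2 FC -4.31, quasi-likelihood adjusted p = 0.0299) and no gene was a higher one (median -0.43, with 2 lower and 1 higher at an unadjusted p under 0.05). With the replicate block Il7 (-1.23, 0.0376) was lower as well, and Tnfsf14 was a DEG in 1 of 6 fits without 1 library, that without LPS replicate 3.

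**Figure D5:**
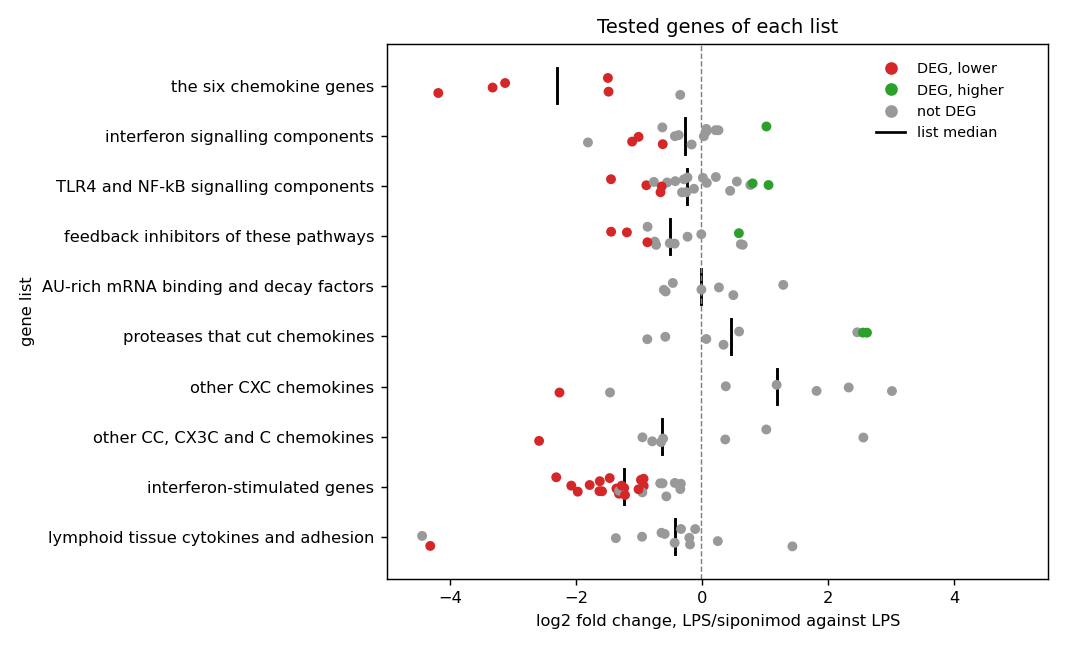
Log2 FC (x axis, LPS/siponimod against LPS) of each tested gene of the 6 chemokines and of 9 lists around them, coloured by call, with a bar at the median of each list and a dashed line at the median of all genes tested (-0.02). The interferon-stimulated genes all lie below 0, and the other CXC chemokines have a median of 1.19.

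The label of the cells was checked against marker genes. All 12 microglial markers were detected, Csf1r being the most abundant, with 2107 CPM in the mean of the LPS libraries. Itgam, which encodes the CD11b used for selection, had 35056, 37771 and 38940 counts in the LPS cultures, compared with 23797, 25285 and 22392 under LPS/siponimod. Cx3cr1 (69, 202 and 35 against 3, 21 and 4 counts), P2ry12 (585, 607 and 43 against 18, 106 and 13) and Tmem119 (693, 961 and 840 against 339, 927 and 622), which mark resting microglia in the brain, were present at low levels. Summed over the 12 markers, the LPS libraries held 10353, 8198 and 5319 CPM and the LPS/siponimod libraries 3927, 4874 and 2648 CPM, so that the mean with LPS/siponimod was 48.0% of that with LPS. Of the 12, 3 were lower DEGs and none a higher one, Itgam (log2 FC -0.87, quasi-likelihood adjusted p = 0.0112), Aif1 (-1.88, 0.0212) and Cx3cr1 (-3.65, 0.0392). Lower DEGs made up 11.7% and DEGs in either direction 25.3% of all genes tested, and 3 of 12 lay near the latter share. At an unadjusted p under 0.05 there were 8 lower and 1 higher, as many as were DEGs with the replicate block, and without LPS replicate 3 there were 7 lower DEGs. Itgam, Aif1 and Cx3cr1 were not DEGs without LPS replicate 2 or LPS/siponimod replicate 1 or 3. Aif1 and Cx3cr1 were not DEGs without LPS replicate 1 either. The part of these differences in the results of the chemokines was not tested.

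Markers of other cells moved in both directions. Of 4 listed markers of perivascular macrophages, 3 were analysed, 2 were tested and 1, Mrc1, was a lower DEG. Both were lower with the replicate block. The summed level was 2729, 1971 and 958 CPM with LPS and 566, 818 and 302 CPM with LPS/siponimod, mostly from Siglec1. Endothelial markers summed to 154, 201 and 81.4 against 36.0, 77.8 and 24.2 CPM, mostly Cdh5, with Kdr at 0 in all libraries and no DEG among 2 tested, although both had an unadjusted p under 0.05 and were lower DEGs with the replicate block. Neutrophil markers summed to 237, 204 and 80.9 against 23.0, 53.6 and 5.92 CPM, mostly Csf3r, with Mpo and Elane at 0, S100a8 as the lower DEG of 2 tested and both lower with the replicate block. The B cell sum was 16.1, 60.8 and 30.8 against 0.882, 22.0 and 0.999 CPM and came mostly from Cd79b, which was not a DEG with all libraries but was one with the replicate block (-3.49, 0.0266) and in 1 of the 6 fits without 1 library, that without LPS/siponimod replicate 2. For T and NK cells, Cd3e and Cd3g were at 0 in all libraries, and Cd3d had 2 counts in LPS/siponimod replicate 2 and none elsewhere. Sums for astrocytes (28.4 ± 12.2 and 37.3 ± 17.6 CPM, mostly Slc1a3), the oligodendrocyte lineage (14.7 ± 16.2 and 14.6 ± 6.60, with Mbp a higher DEG), neurons (4.67 ± 5.75 and 8.42 ± 5.79, mostly Tubb3) and fibroblasts and pericytes (4.92 ± 1.04 and 8.39 ± 3.64, with Dcn a higher DEG) were small in all libraries. Whether these cells contributed chemokine mRNA was not tested.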

How the data were processed

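Single-end reads were trimmed by the authors and mapped to the rat genome (mRatBN7.2) in the CLC Genomics Workbench, and total read counts per gene were deposited for each library, without normalization. Demultiplexing with bcl2fastq (version 2.20.0.422) and the build are named in the submitters' processing notes. Handling of strand, introns and reads that match several genes is not given in the sources used here, so that values of overlapping or near-identical genes are uncertain. Intervals and floors cover counting error or the spread between these 6 libraries only.

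The software was R 4.3.3, edgeR 4.0.16, limma 3.58.1 and DESeq2 1.42.0. Genes were kept by filterByExpr (minimum count of 10, minimum total of 15). For the main fit, TMM factors, glmQLFit and glmQLFTest were used with no term besides the condition, and the Benjamini-Hochberg adjustment covered all 11977 genes. The standard error is the log2 FC divided by the square root of the F statistic. Differences by pair, ratios and likeness use log2 CPM with a prior count of 2. The procedure was tested on simulated data.

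After centring on the group mean, same-numbered libraries correlated over genes at 0.42, 0.545 and 0.611, whereas differently numbered ones gave -0.534 to 0.086. The centred values of a gene cancel out within a group, so that positive correlations for some combinations of libraries bring negative ones for others. The negative values are therefore no separate observation. On these correlations the numbers were taken to mark pairs, which enter the fit with the replicate block and no other test. The labels do not state what they mark.

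The 6 genes and all lists were chosen with earlier results of these data known. All members are named, receptors are named unless not reported here, and of each other list up to 3 DEGs in each direction by order of p-value, or the most abundant gene where there was none. Neighbouring genes, Olig1, the genes added by an alternative (Stat2, Irf8, Socs1, Tnfaip3, Zfp36l2, Il7, Cxcl1, Cxcl2, Cxcl3, Cxcl6, Ccl3, Ccl20), Adam10, Adam17, Dpp4, Ifnb1, Ifng and further markers were added after values were seen. Of the listed genes, Ccr1, Ticam1, Dusp1, Ccl6, Ccl22, Rigi, Lyve1, Cldn5, Ncr1 and Trac are not analysed here. Promoters were read from RefSeq (GRCr8), which held 5 of the 6 members.

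Alternatives were the likelihood ratio test of edgeR, limma-voom, DESeq2, RLE normalization, a filter that kept each gene with at least 1 count (17057 genes) or with at least 1 CPM on average (10885 genes), the replicate number as a block, a prior count of 0.5 for ratios, and each library left out in turn.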

Additional observations from a re-analysis of the deposited data

How the results depend on the processing

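The 5 DEGs among the 6 chemokine genes and the absence of a call for Cxcl16 were the same with RLE normalization, DESeq2, limma-voom, edgeR's likelihood ratio test, both other filters and the replicate block. With the replicate number as a block, the log2 FCs were -1.40 for Cxcl9, -3.51 for Cxcl10, -4.12 for Cxcl11, -3.20 for Cxcl13, -0.33 for Cxcl16 and -1.46 for Ccl5, the number of all DEGs was 4074, and no call of a member changed. The block raised the standard error of Cxcl11 (from 0.47 to 0.50) and of Cxcl13 (from 0.60 to 0.64) and lowered it for the other members. The results were sensitive to single libraries. With 1 library left out, which leaves a group of 2, all DEGs numbered between 651 (without LPS replicate 2) and 3713 (without LPS replicate 3), lower DEGs between 182 and 1772, higher DEGs between 469 and 1941, DEGs among the 6 chemokine genes between 1 (without LPS/siponimod replicate 1 or 3) and 5 (without LPS replicate 3), and DEGs summed over the 10 lists between 6 and 46. In these fits the log2 FC lay between -1.75 and -1.14 for Cxcl9, -4.21 and -2.76 for Cxcl10, -3.72 and -3.04 for Cxcl13 and -1.75 and -1.03 for Ccl5, with the same direction in all 6 fits of each gene. No log2 FC or ratio of the 6 chemokine genes changed sign in an alternative run for it. Among the other genes named, the log2 FCs of Ccl3 (-0.65), Ccl4 (-0.62) and Ccl9 (-0.79) turned to 1.30, 0.81 and 0.67 without LPS replicate 3. For the numbers of DEGs in single lists, 70 values from alternatives moved by more than 1.5 times and 190 did not. Of these 70, 47 came from fits with 1 library left out. At this depth, receptors with a few counts, such as Cxcr3, could not be compared between the conditions.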
